A study of Mus musculus with 11 samples.

Results

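The mitochondrial ribosomal proteins are the genes named Mrpl and Mrps followed by a number, and processed copies marked -ps were left out. The rule found 78 of 54532 genes in the pancreas table (49 Mrpl and 29 Mrps) and 78 of 46078 in the adipose table (48 Mrpl and 30 Mrps). Joined by gene ID they are 79 genes, of which 77 are in both tables. Mrpl58 was listed in the adipose table under its older symbol Ict1, so the rule did not find it there. The adipose table also holds a second Mrps23 row with its own ID and 0 counts in every library.

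The libraries came from the pancreas (2 control and 3 OA-AP samples) and from epididymal adipose tissue (3 control and 3 OA-AP samples) of wild type male mice labelled C57BL/6 (C57BL/6J in the study's methods), with a labelled age of 16 weeks. Mice of the OA-AP group, a model of obesity-related alcohol-induced acute pancreatitis, received 2 intraperitoneal injections of ethanol at 2 g/kg, 1 h apart, after 12 weeks on high-fat diet. The control group ate normal chow for the same 12 weeks and received saline. Diet and ethanol differed together between the groups and cannot be told apart, and tissues were taken 12 h after the first injection.

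Mitochondria carry their own ribosome, which translates only the messages of the mitochondrial genome, all of them for membrane subunits of the respiratory chain and ATP synthase. Its 2 rRNAs are made inside the organelle, whereas its proteins are encoded in the nucleus, made in the cytosol and imported. Most of the proteins sit in a large subunit, which forms peptide bonds, or a small subunit, which reads the message. The names are historical: the proteins of Mrps30 and Mrps18a sit in the large subunit despite their symbols, and the protein of Mrps36 is now placed in the alpha-ketoglutarate dehydrogenase complex, so subunits are counted here by symbol.

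Total counts per library ran from 14188832 to 17238919 in the pancreas and from 20825177 to 27928097 in adipose tissue. A tested member had a median of 98 to 134 counts per pancreas library and of 593 to 766 per adipose library, so the pancreas values are the less precise. Genes for secreted acinar proteins took 81.8% and 83.3% of counts in the control pancreas and 67.5% to 70.1% in the OA-AP pancreas. Scaling by trimmed mean of M-values (TMM) sets typical genes level across libraries, and scaling by library totals does not, so the direction of many pancreas values below depends on which is used. Unless said otherwise, levels are TMM-scaled CPM (counts brought to a common library size) and changes are log2 fold changes of OA-AP against control. In whole tissue, fewer cells of a type and less RNA per cell cannot be told apart.

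Epididymal adipose control sample 2 stood apart, with 1.17% of its counts from acinar genes against at most 0.026% in the other adipose libraries. All 6 adipose calls described below held without it. The summed CPM of 9 acinar markers fell from between 483872 and 568502 in control to between 233998 and 312767 in OA-AP pancreas, with 6 of the 9 downregulated. The 8 adipocyte markers summed to between 27914 and 28094 CPM in control and between 28919 and 31074 in OA-AP adipose tissue. Singly they were mixed, with 1 upregulated and 1 downregulated, and by sign 3 were higher and 5 lower. The 7 neutrophil markers summed to between 6.90 and 12.8 CPM in control and between 179 and 197 in OA-AP adipose tissue, and 6 of them were upregulated. In the pancreas they summed to at most 1.89 in control and to 13.02, 3.60 and 101 in OA-AP samples 1, 2 and 3. OA-AP pancreas sample 3 also differed more from samples 1 and 2 (chi-square per degree of freedom over genes of 53.2 and 60.2) than these did from each other (13.8). Without sample 3, 20 members were called, 1 up and 19 down, a count with no share of all genes beside it. Islet markers summed to between 928 and 1134 CPM in control and between 1267 and 1535 in OA-AP pancreas, with 1 of 6 upregulated. In adipose tissue 3 of 4 fibroblast markers were downregulated, from a sum of 2303 to 2842 CPM to one of 1272 to 1625, as were 4 of 5 lymphocyte markers, from 5.61 to 34.2 CPM to 1.76 to 3.03. The part of these cell types in the values below was not tested.

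Mrpl53 had 0 counts in all 11 libraries, and 88.0% of its exon bases are shared with the gene Gm42688 on the same strand. Of the 78 members with an entry in GENCODE M21, 45 share no exon base with another gene and 10 share over 20%, among them Mrps34 (77.8%, with Mapk8ip3), Mrps25 (69.8%, with Nr2c2) and Mrps18b (30.5%, with Gm16279). Values of these 10 are uncertain, because reads in shared stretches could be counted for either gene or for none.

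In control tissue the members spanned a wide range of levels per kilobase of gene length. Mrps21, a small subunit protein conserved in bacteria, was highest in both tissues, at 31.7 CPM per kilobase in the pancreas and 54.2 in adipose tissue. Mrps24 (21.3) and Mrpl52 (20.2) followed in the pancreas, and Mrps15 (35.5) and Mrpl41 (34.5) in adipose tissue. Mrps25 (0.499), Mrps6 (0.587) and Mrpl19 (0.623) were lowest in the pancreas, and Mrpl19 (2.17), Mrps35 (2.90) and Mrps25 (2.93) in adipose tissue. Across the 76 members tested in both tissues, the log2 levels per kilobase had a Pearson r of 0.81 and a Spearman rho of 0.81. The points share gene lengths, so this is a description only.

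In the pancreas 77 members could be tested, and 18 passed the thresholds, an adjusted p-value under 0.05 with a fold change of at least 1.5 (edgeR's quasi-likelihood test, Benjamini-Hochberg adjustment). Of these, 16 were downregulated and 2 upregulated. Among all 12884 genes tested 29.8% were called, 16.2% up and 13.5% down. The median change of the members was -0.25, with 0.04 for all genes tested. With library totals alone the medians were 0.45 and 0.75, and 21 members were called up and 2 down, where 45.4% of all genes were called up and 3.93% down, so the direction of the members turns with the scaling while the gap between them and all genes, -0.29 and -0.30, does not.

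Mrps-named genes made up 10 of the 16 that were downregulated, out of 29 tested, and Mrpl-named genes 6 of 48. The median change was -0.48 for the Mrps-named and -0.22 for the Mrpl-named genes. With library totals, 14 of the 18 calls were lost. The 4 that remained were Mrpl42 and Mrps21 as downregulated and Mrpl38 and Mrps30 as upregulated.

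Mrpl42, which encodes a large subunit protein, lies on chr10:95480805-95501940 (GRCm38, minus strand). It was at 13.8 and 17.3 CPM in the control pancreas and at 4.57, 4.86 and 2.82 in the OA-AP pancreas. The groups did not overlap, and the change was -1.93 (SE 0.25, adjusted p = 0.00125, edgeR). Mrps21 (chr3:95862634-95871519, minus strand) was at 19.9 and 26.9 CPM in control and at 10.7, 9.04 and 8.37 in OA-AP. Every OA-AP sample was below both controls, with a change of -1.32 (SE 0.19, adjusted p = 0.00157, edgeR).

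Mrps36 had the largest fall of any member under TMM, -2.33 (SE 0.62, adjusted p = 0.0231, edgeR). It was at 2.57 and 3.09 CPM in control and at 1.05, 0.458 and 0.157 in OA-AP pancreas. These rest on 30 and 31 counts in control and on 20, 8 and 3 in OA-AP, and the gene no longer entered the test where 10 counts were required in every sample. Its processed copies had at most 3 counts in any pancreas library.

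Small subunit proteins conserved in bacteria followed. Mrps14 was at 12.96 and 13.6 CPM in control and at 6.14, 7.04 and 5.02 in OA-AP, a change of -1.13 (SE 0.20, adjusted p = 0.00393, edgeR). Mrps24 was at 25.4 and 37.0 CPM in control and between 14.5 and 15.8 in OA-AP, a change of -1.03. Mrps28 fell from 7.04 and 8.67 to between 2.20 and 4.36 CPM, a change of -1.17. In all 3 genes every OA-AP sample was below both controls. Mrps15 (-0.84), Mrps10 (-0.76) and Mrps12 (-0.76), whose protein lies at the decoding centre, were downregulated as well. None of these 6 genes was called with library totals alone.

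Of the large subunit, Mrpl28 was at 18.0 and 18.8 CPM in control and at 8.51, 10.2 and 9.99 in OA-AP, a change of -0.94 (SE 0.16, adjusted p = 0.0032, edgeR). Mrpl23, whose protein lies at the exit of the peptide tunnel, changed by -0.94 and Mrpl30 by -0.61. Mrpl48 (-0.72) and Mrpl14 (-0.63) were the others called down, and none of the 5 was called with library totals alone. Without control sample 2 the calls dropped to 3 (Mrpl42, Mrps21 and Mrpl28), without control sample 1 to 5, with Mrps14 and Mrps24 added, and without OA-AP sample 1 to 11. Leaving out a control leaves a single control library, which is then assumed to vary like the OA-AP samples.

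Mrps30 and Mrpl38 were upregulated. Mrps30, on chr13:118378381-118387252 (minus strand), was at 4.46 and 4.69 CPM in control and at 8.14, 7.32 and 6.64 in OA-AP, a change of 0.69 (SE 0.21, adjusted p = 0.0388, edgeR). Mrpl38, a protein of the large subunit, was at 14.9 and 12.1 CPM in control and between 19.2 and 22.3 in OA-AP, a change of 0.62. Both lost their call when OA-AP sample 1, OA-AP sample 2 or either control was left out, and Mrpl38 also without OA-AP sample 3. DESeq2 did not call Mrps30.

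The 3 genes that share the Mrps18 name moved unequally in the pancreas. Mrps18c changed by -0.94 and Mrps18a by -0.74, both past the threshold. Mrps18c passed narrowly (adjusted p = 0.0463, edgeR). It shares 23.2% of its exon bases with Gm43511 on the same strand, so its value is among those called uncertain above. Mrps18b was at 2.66 and 2.79 CPM in control and at 4.25, 4.12 and 5.54 in OA-AP, a change of 0.77 that did not pass (adjusted p = 0.0652, edgeR). With library totals the calls of Mrps18a and Mrps18c were lost. Of other members with a described role, Mrpl12, whose protein also binds the mitochondrial RNA polymerase, changed by -0.32, Mrpl11 of the factor-binding stalk base by -0.49 and Mrpl58, a peptidyl-tRNA hydrolase, by -0.55, none past the thresholds.

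**Figure D1:**
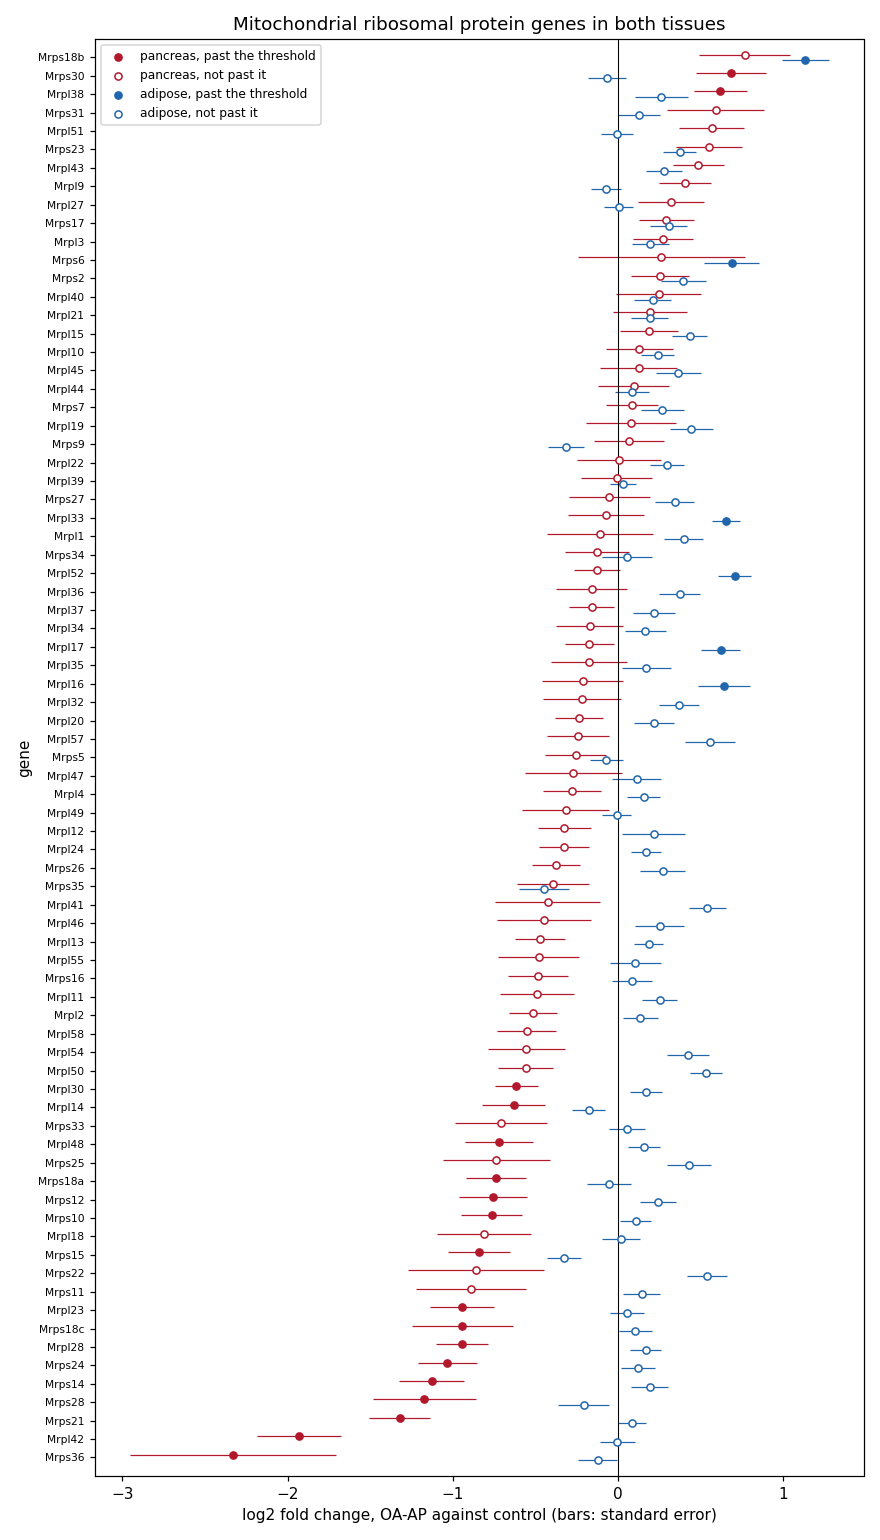
Log2 fold change of OA-AP against control (x axis) for each of the 77 members tested in the pancreas (y axis), in the pancreas (red) and in adipose tissue (blue), with bars for the standard error and filled points for genes past the thresholds, under TMM scaling. The 18 filled red points are 16 on the left of 0 and 2 on the right, and the 6 filled blue points are all on the right, whereas with library totals alone 21 members were called up and 2 down in the pancreas.

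Counting groups that do not overlap, 37 members were lower and 11 higher in every OA-AP pancreas than in both controls, and 29 overlapped. Over all genes tested, 62.3% did not overlap, 29.4% lower and 32.9% higher. The median of the members minus the median of all genes, in log2 CPM of each library, was 0.52 and 0.60 in control and 0.10, 0.11 and 0.02 in OA-AP pancreas. This gap does not depend on the scaling factor of a library, and the groups did not overlap.

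The share of all counts that fell on members was 0.0588% ± 0.0025 (SD, n = 2) in control and 0.0800% ± 0.0068 (SD, n = 3) in OA-AP pancreas, a ratio of 1.36. Of the counts outside acinar secretory genes it was 0.337% ± 0.0059 in control and 0.258% ± 0.018 in OA-AP, a ratio of 0.764. The direction of the share thus turns with the denominator.

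The median change of the members in the pancreas was -0.61 for transcripts up to 750 bases and -0.48 for 750 to 1000. It was -0.32 up to 1500, 0.13 up to 2500, -0.23 up to 4000 and -0.37 above that. It was thus lowest for the shortest transcripts but did not rise steadily with length. Of the 17 members with a median coding transcript of up to 750 bases 8 were downregulated, of the 15 between 750 and 1000 bases 5, and of the 45 longer ones 3. Over all genes tested with a coding transcript, 20.1% of those up to 750 bases and 21.6% of those from 750 to 1000 were downregulated. Above 1000 bases the share fell from bin to bin, from 19.2% up to 1500 bases to 10.7% over 4000. Members were thus called down more often than all genes up to 1000 bases and less often above that. The median changes of all these genes, in the same order of bins, were -0.17, -0.14, -0.12, 0.05, 0.15 and 0.17. The member median was above that of all genes only between 1500 and 2500 bases. Spearman's rho between transcript length and change was 0.29 over the 77 members and 0.12 over all 11777 genes, as a description across genes. The members have a median transcript of 1162 bases against 2479 for all, and the part of length in their fall was not tested.

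In adipose tissue 76 members could be tested and 6 passed the thresholds, all of them upregulated (edgeR's quasi-likelihood test). Among all 15839 genes 25.1% were called, 12.1% up and 13% down, so the share of members called was below that of all genes. The median change of the members was 0.19, with -0.01 for all genes tested. With library totals the medians were 0.04 and -0.17, and of the 6 calls Mrps18b remained, with Mrps35 called down, where 8.62% of all genes were called up and 18.2% down. Without a fold threshold 18 members were called up and 1 down, beside 19.4% and 17.5% of all genes.

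Mrps18b, a small subunit protein, had the largest rise (chr17:35910379-35916389, minus strand). It was at 13.4, 11.6 and 11.5 CPM in control and at 29.8, 22.1 and 28.3 in OA-AP adipose tissue, a change of 1.13 (SE 0.14, adjusted p = 0.00173, edgeR). Every OA-AP sample was above every control. Mrpl52, of the large subunit, was at 24.4, 23.8 and 25.2 CPM in control and at 43.5, 35.2 and 41.0 in OA-AP, a change of 0.71 (SE 0.10, adjusted p = 0.0027, edgeR). Mrpl33, a large subunit protein conserved in bacteria, was at 25.2, 25.5 and 22.8 CPM in control and at 38.8, 38.1 and 38.8 in OA-AP. Its groups were far apart for its spread, with a change of 0.66 (SE 0.08, adjusted p = 0.00186, edgeR).

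Mrps6 was at 35.6, 35.8 and 36.4 CPM in control and at 49.5, 49.2 and 74.9 in OA-AP, a change of 0.69. One OA-AP sample was well above the other two, and the call was lost without that sample, and also without control sample 1 or 3. Mrpl16 (0.64) and Mrpl17 (0.62), both conserved in bacteria, were the others called. Mrpl16 was at 17.6, 15.3 and 13.8 CPM in control and at 29.0, 20.4 and 23.4 in OA-AP. Mrpl16 lost its call without control sample 3 or OA-AP sample 1, and Mrpl17 without OA-AP sample 1.

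Mrpl50, a large subunit protein, was just under the fold threshold in both tissues. It changed by -0.56 in the pancreas (adjusted p = 0.0353, edgeR) and by 0.53 in adipose tissue (adjusted p = 0.00607, edgeR). The 7 genes with the largest falls in the pancreas did not pass the thresholds in adipose tissue, where Mrps36 changed by -0.12, Mrpl42 by -0.0047, Mrps21 by 0.08, Mrps28 by -0.21, Mrps14 by 0.19, Mrps24 by 0.12 and Mrpl28 by 0.17. Mrpl42 was at 47.8, 41.8 and 39.1 CPM in control and at 45.3, 39.2 and 43.8 in OA-AP adipose tissue, with overlapping groups. Ict1, the adipose listing of Mrpl58, changed by -0.02.

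**Figure D2:**
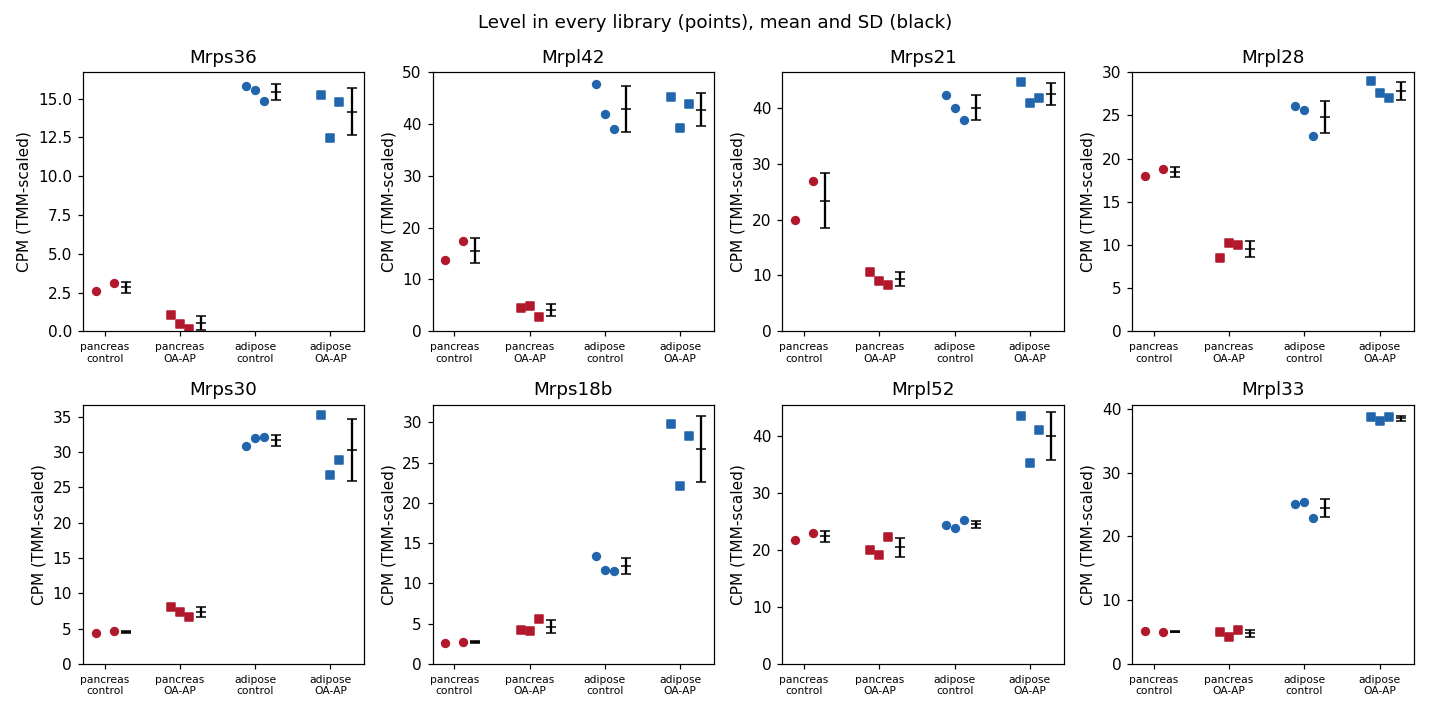
TMM-scaled CPM (y axis) of 8 members in every library of each tissue and group (x axis), circles for control and squares for OA-AP, with the mean and SD in black. Mrpl42 and Mrps21 are lower in every OA-AP pancreas than in both controls, and Mrps18b, Mrpl52 and Mrpl33 are higher in every OA-AP adipose sample than in every control. Levels of the 2 tissues were scaled apart.

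In adipose tissue 27 members were higher and 4 lower in every OA-AP sample than in every control, and 45 overlapped. Over all genes tested, 52.4% did not overlap, 26.4% higher and 26% lower. The median of the members minus that of all genes, in log2 CPM, was 0.73, 0.58 and 0.62 in control and 0.99, 0.72 and 0.82 in OA-AP, so the lowest OA-AP sample lay below the highest control. The share of counts on members was 0.230% ± 0.012 (SD, n = 3) in control and 0.241% ± 0.015 (SD, n = 3) in OA-AP, and the groups overlapped.

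**Figure D3:**
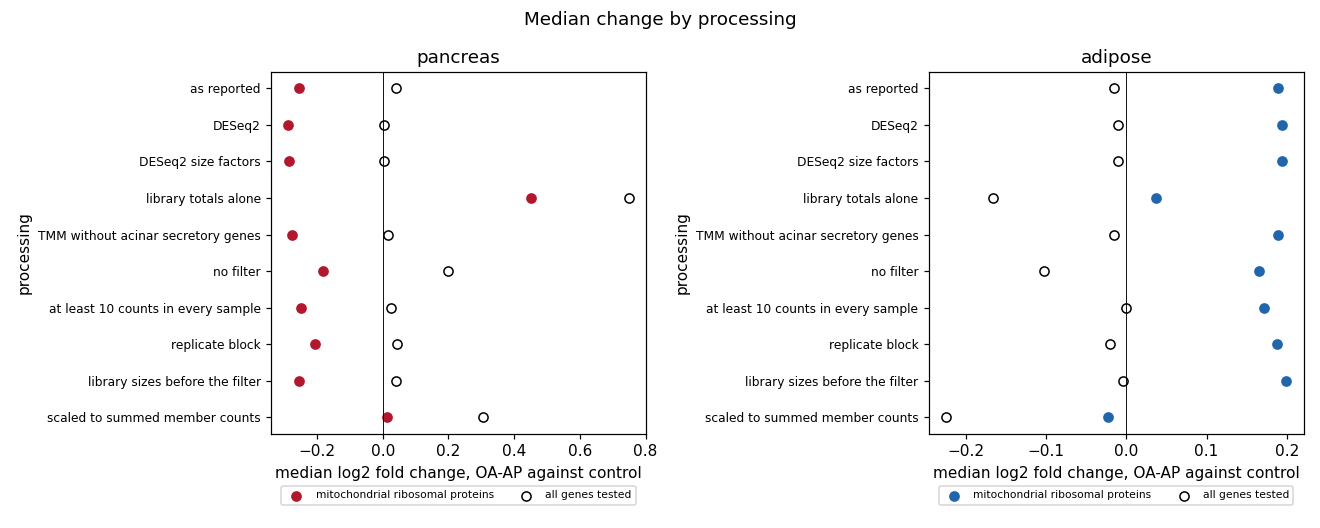
Median log2 fold change (x axis) of the members (filled) and of all genes tested (open) under each processing (y axis), for the pancreas (left) and adipose tissue (right). The pancreas member median is above 0 with library totals alone (0.45, and 0.75 for all genes) and when scaled to summed member counts (0.012), the adipose member median is below 0 only in the latter (-0.023), and the members stay to the left of all genes in the pancreas and to the right of them in adipose tissue in every row.

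Whether the change of a gene differed between the tissues was tested with an interaction term over all 11 libraries, taken as unpaired. Of 77 members tested 29 passed, 28 with the change in adipose tissue above that in the pancreas and 1, Mrps30, below it. Among all 17046 genes 20.6% passed, 10.4% up and 10.2% down. Scaled by library totals alone, 1 was called up and 21 down, beside 2.19% and 36.1% of all genes, so this direction also turns with the scaling, and of the 29 only Mrpl42 and Mrps30 kept a call. Mrpl42 differed by 1.92 (SE 0.26, adjusted p = 0.000512, edgeR) and Mrps21 by 1.39 (SE 0.19, adjusted p = 0.000552, edgeR). Mrpl28 (1.10), Mrps14 (1.31), Mrpl50 (1.08), Mrps24 (1.14), Mrpl30 (0.77) and Mrpl52 (0.82) had the next smallest p-values. With same-numbered pancreas and adipose samples as a replicate block, 14 of the 29 kept their call and Mrps30 lost it. Leaving out 1 library gave 15 to 28 calls, with 15 without pancreas control 2, 16 without adipose control 3, 18 without pancreas control 1 and 19 without adipose OA-AP sample 1.

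Of the 76 members tested in both tissues, 44 were lower in the pancreas and higher in adipose tissue, 19 higher in both, 9 lower in both and 4 higher in the pancreas and lower in adipose tissue, by the sign of the change under TMM. Taken alone, 54 of 77 members were lower in the pancreas and 63 of 76 higher in adipose tissue. The joint counts have no share of all genes beside them and are not read as an opposite response. The median pancreas change was 0.45 with library totals alone. No member was called in both tissues. The changes in the tissues had a Pearson r of 0.31 and a Spearman rho of 0.31 across these 76 genes, as a description.

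**Figure D4:**
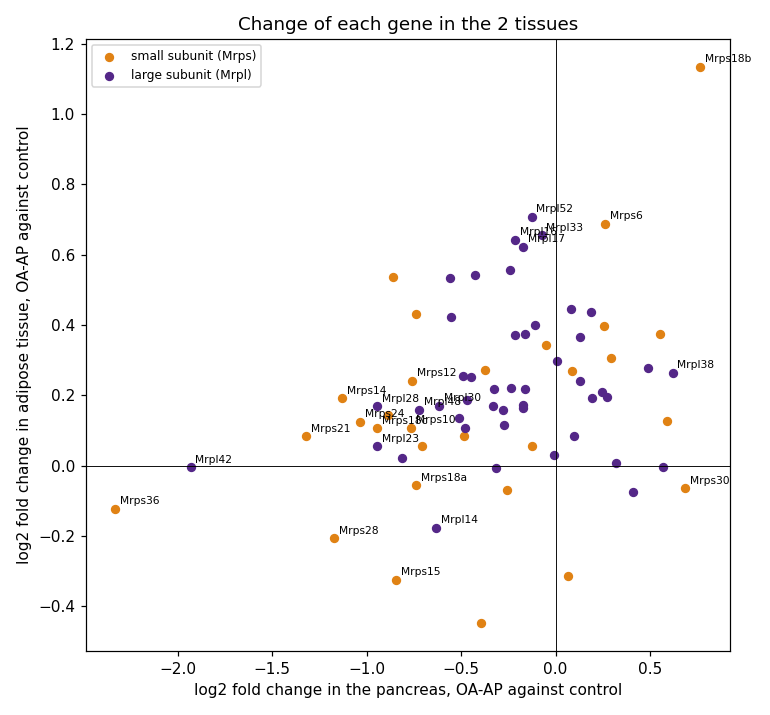
Log2 fold change of each of the 76 members in the pancreas (x axis) and in adipose tissue (y axis), orange for Mrps and purple for Mrpl symbols, with names for those past the thresholds in either tissue, under TMM scaling. The upper left part, lower in the pancreas and higher in adipose tissue, holds 44 of the genes, a count with no share of all genes beside it. With library totals alone the median pancreas change was 0.45.

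The ratio of summed Mrps counts to summed Mrpl counts in a library needs no scaling between libraries. It goes by symbol, so it counts Mrps30, Mrps18a and Mrps36 as Mrps and leaves out mitoribosome proteins with other names. It was 0.525 and 0.541 in control and 0.460, 0.479 and 0.475 in OA-AP pancreas. In adipose tissue it was 0.544, 0.547 and 0.558 in control and 0.514, 0.504 and 0.523 in OA-AP. In each tissue every OA-AP library was below every control, but no such ratio was taken for other genes as a background. The means were 0.533 ± 0.011 (SD, n = 2) and 0.471 ± 0.010 (SD, n = 3) in the pancreas and 0.550 ± 0.0073 (SD, n = 3) and 0.514 ± 0.0098 (SD, n = 3) in adipose tissue.

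**Figure D5:**
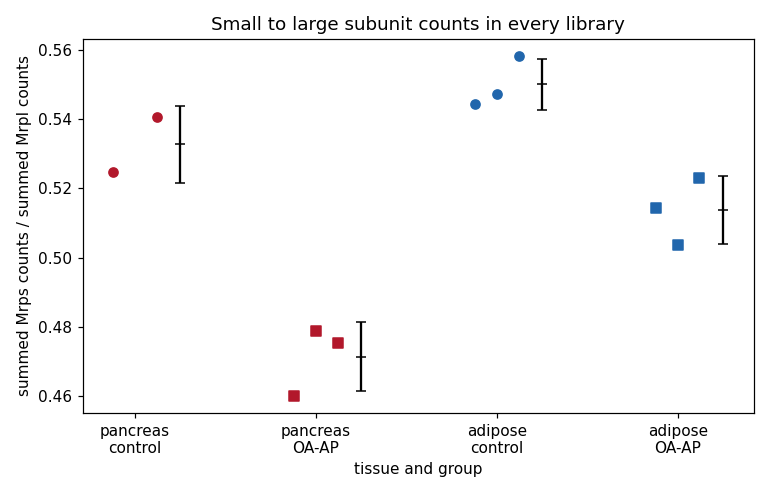
Summed counts of Mrps genes over summed counts of Mrpl genes (y axis, not starting at 0) in every library of each tissue and group (x axis), circles for control and squares for OA-AP, with the mean and SD in black. The OA-AP libraries sit at 0.460 to 0.479 in the pancreas and 0.504 to 0.523 in adipose tissue, below all controls of the same tissue.

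The promoters of 6 of these genes are shown: those with the 3 largest falls in the pancreas (Mrps36, Mrpl42, Mrps21), the larger of the 2 called rises there (Mrps30) and the 2 largest rises in adipose tissue (Mrps18b, Mrpl52). Each is the 100 bases before the RefSeq start (GRCm38.p6), 5′ to 3′ on the gene's strand, and capitals mark matches to the motifs given below.
Mrps36, chr13:100744660-100744759, minus strand: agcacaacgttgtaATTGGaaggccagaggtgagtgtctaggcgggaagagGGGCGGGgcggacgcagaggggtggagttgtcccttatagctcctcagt
Mrpl42, chr10:95501950-95502049, minus strand: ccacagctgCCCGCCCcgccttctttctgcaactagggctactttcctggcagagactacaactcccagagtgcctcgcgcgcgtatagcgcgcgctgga
Mrps21, chr3:95871515-95871614, minus strand: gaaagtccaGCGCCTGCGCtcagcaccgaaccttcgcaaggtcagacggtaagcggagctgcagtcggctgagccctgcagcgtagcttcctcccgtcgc
Mrps30, chr13:118387253-118387352, minus strand: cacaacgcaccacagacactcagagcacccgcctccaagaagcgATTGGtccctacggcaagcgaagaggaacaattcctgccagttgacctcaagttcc
Mrps18b, chr17:35916441-35916540, minus strand: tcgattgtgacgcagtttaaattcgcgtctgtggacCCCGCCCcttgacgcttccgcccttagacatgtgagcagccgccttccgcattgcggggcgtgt
Mrpl52, chr14:54426809-54426908, plus strand: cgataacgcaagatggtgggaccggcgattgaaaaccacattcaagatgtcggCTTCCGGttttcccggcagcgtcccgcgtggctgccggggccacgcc

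All 10 motifs that were searched are given, on both strands of the 300 bases around the start of 69 members and of all 27025 gene symbols in the table. The NRF1 motif was in 18.8% of member promoters and 5.19% of all. The ETS motif CCGGAAG was in 37.7% and 9.93%, and the GABPA motif ACTTCCGG, every match of which is also an ETS match, in 17.4% and 4.31%. The YY1 motif AAGATGGC was in 17.4% and 3.19%, and the SP1 motif GGGCGGG in 42% and 27.9%. The CCAAT box was in 39.1% and 41.1%, the E-box CACGTG in 7.25% and 8.09%, the CRE TGACGTCA in 2.9% and 2.03%, TATAAA in 7.25% and 15.7%, and a palindromic core promoter motif in 1.45% and 0.525%.
The shares are descriptions with no test, and the comparison set holds genes of every kind.

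Related genes give the setting, in lists described by counts. Under TMM, 16.2% of all genes tested in the pancreas were called up and 13.5% down, and 12.1% and 13% in adipose tissue. Of 5 mitoribosome proteins with other names tested in the pancreas, Gadd45gip1 was downregulated (-0.88), and of 6 in adipose tissue none was called. Of 17 mitochondrial translation factors 4 were downregulated in the pancreas: the elongation factors Tsfm (-0.89), Gfm1 (-0.64) and Tufm (-0.59) and the GTPase Guf1 (-0.86). In adipose tissue Guf1 alone was called, at -0.76. Of 31 assembly factors in the pancreas 2 rose and 4 fell, Mettl17 (-1.05) and Mtg1 (-0.90) among them, and of 32 in adipose tissue none was called. Scaled by library totals alone, 4 translation factors and 14 assembly factors were called up in the pancreas and 0 down, under a scaling that called 45.4% of all genes up.

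The 2 mitochondrial rRNAs did not pass in the pancreas, mt-Rnr1 at -0.18 and mt-Rnr2 at -0.55 (adjusted p = 0.0617, edgeR). In adipose tissue mt-Rnr2 was upregulated by 0.89, from 728, 815 and 560 CPM in control to 913, 1650 and 1340 in OA-AP, and mt-Rnr1 changed by 0.76 without passing (adjusted p = 0.0627, edgeR). Of 14 genes of the mitochondrial genome tested in the pancreas 2 fell, mt-Nd2 (-0.98) and mt-Nd1 (-0.86). Library totals alone gave 1 up and 0 down in the pancreas, and 0 up and 1 down of 15 in adipose tissue, so the call of mt-Rnr2 was lost.

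Among regulators of mitochondrial gene programs, the coactivator Ppargc1a was downregulated in both tissues, by -2.87 in the pancreas and -2.11 in adipose tissue, and the related coactivator Pprc1 was upregulated in both, by 1.26 and 1.48. Myc fell by 0.74 in the pancreas and rose by 1.75 in adipose tissue. Yy1 was upregulated in the pancreas, from 31.3 and 22.9 CPM in control to 56.3, 54.7 and 54.2 in OA-AP. Esrra was downregulated in adipose tissue, from 35.9, 23.6 and 32.1 CPM in control to 20.9, 17.5 and 19.2 in OA-AP. Library totals alone gave 9 regulators up and 1 down of 13 in the pancreas, where 3 rose and 3 fell under TMM. Of 14 regulators in adipose tissue 2 rose and 3 fell under either scaling. Of 11 genes of mitochondrial transcription and replication in the pancreas 2 rose and 0 fell, or 4 and 0 with library totals alone. The mitochondrial polymerase gene Polg rose by 1.13, and Tfb2m from 4.98 and 5.18 CPM in control to 8.19, 9.61 and 6.75 in OA-AP. In adipose tissue 0 of 12 rose and 2 fell under either scaling, Polg2 and Mterf1b. Polg2 was at 8.08, 8.43 and 7.9 CPM in control and at 3.89, 4.09 and 3.74 in OA-AP. Of 20 mitochondrial aminoacyl-tRNA synthetases 1 rose and 2 fell in the pancreas (Cars2, -1.44), but 2 were called up and 0 down with library totals alone, and Rars2 rose by 0.79 in adipose tissue.

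For comparison, 32 of 37 complex I subunits were downregulated in the pancreas, with a median of -0.97, and none of 37 was called in adipose tissue, with a median of -0.12. Library totals alone left 3 complex I subunits called down in the pancreas and 1 up. Of the cytosolic ribosomal proteins 11 of 87 fell and 1 rose in the pancreas (median -0.32), and 6 of 86 rose in adipose tissue (median 0.40). Neither count was above the share of all genes, 13.5% called down in the pancreas and 12.1% called up in adipose tissue. Without a fold threshold, however, 45 of the 86 were called up in adipose tissue and 0 down, beside 19.4% and 17.5% of all genes. With the fold threshold, library totals alone gave 10 up and 0 down in the pancreas and 1 up in adipose tissue.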

How the data were processed

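Counts per gene and sample were deposited without normalization. The authors trimmed reads with Trim Galore (0.6.6), checked them with fastp (0.20.1), mapped them to GRCm38 with STAR and counted them with featureCounts (2.0.1). The library kit does not mark strand. The annotation release and counting settings are not given in the sources used here.

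Genes with low counts were removed with filterByExpr, library sizes were taken over the kept genes, and libraries were scaled by TMM. The choice to count library sizes over kept genes was made after comparing call counts of several settings. Each tissue, and their interaction over all 11 libraries, was tested with edgeR 4.0.16 (R 4.3.3, robust quasi-likelihood, Benjamini-Hochberg). Alternatives were DESeq2 1.42.0, other scalings, filters and fold thresholds, a replicate block and leaving out each sample. The fit was tried on simulated counts in which a small set of genes changed by known folds, up as often as down. These held no built-in change in the share of acinar genes, so the choice of scaling was not tested. SE is the size of the log2 change over the square root of F, and log2 CPM used a prior count of 2. No p-value is given for summed member counts. Nothing states that samples are separate animals beyond their labels, so p-values measure the spread between these samples.

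Members, lists and promoter motifs were chosen with earlier results of these data known. Genes were named by rule: per tissue the 8 called members with the smallest p, the 4 largest called changes each way, the 3 highest and 3 lowest per kilobase, the 8 smallest interaction p-values, untested members, 10 members chosen by role, and up to 4 called genes per related list. Others were named after their values were seen. Gene positions are from GENCODE M21 and promoters from RefSeq.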

Additional observations from a re-analysis of the deposited data

Results flagged for a closer look

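The change in adipose tissue minus that in the pancreas differed from 0 by the interaction term (edgeR, adjusted) for 29 members, 28 above 0 and 1 below. The log2 differences above 0 were Mrpl42 1.92, Mrps21 1.39, Mrpl28 1.10, Mrps14 1.31, Mrpl50 1.08, Mrps24 1.14, Mrpl30 0.77, Mrpl52 0.82, Mrps10 0.86, Mrpl23 0.99. Next came Mrpl48 0.87, Mrps12 0.99, Mrpl17 0.78, Mrpl13 0.65, Mrps25 1.16, Mrps36 2.21, Mrpl2 0.64, Mrps18c 1.04, Mrps22 1.39. The remaining ones were Mrpl33 0.72, Mrpl54 0.97, Mrps11 1.02, Mrpl41 0.95, Mrpl57 0.79, Mrps26 0.63, Mrpl11 0.73, Mrps18a 0.67, Mrpl16 0.85. Mrps30 was the exception, at -0.76. These values are under TMM over both tissues. With library totals alone 1 member was called above 0 and 21 below, and 2 of the 29 kept a call. With same-numbered pancreas and adipose samples as a replicate block, 14 of the 29 kept their call, without Mrps30.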

How the results depend on the processing

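Shares of all genes called are given above for library totals alone and for adipose tissue without a fold threshold. Under the other alternatives, here and above, member counts have no such share beside them. Those counts do not show whether members moved more than other genes. In the pancreas, the 18 members called (2 up, 16 down) became 18 with DESeq2 (1 up, 17 down), 23 with library totals alone (21 up, 2 down), 17 with no filter (4 up, 13 down), 8 up and 7 down when scaled to summed member counts (added after seeing the data), and 6, 0 up and 6 down, at a fold of at least 2. In adipose tissue, 6 became 2 (1 up, 1 down) with library totals alone and when scaled to summed member counts, 19 (18 up, 1 down) without a fold threshold and 1 at a fold of at least 2. Between tissues, 29 became 1 up and 21 down with library totals alone, 31 (29 up, 2 down) with at least 10 counts in every sample, 14 (14 up, 0 down, all among the 29 and without Mrps30) with same-numbered pancreas and adipose samples as a replicate block, and 11 (11 up, 0 down) at a fold of at least 2. Leaving out 1 sample gave 3 to 20 calls in the pancreas (0 to 1 up, 3 to 19 down), 4 to 9 in adipose tissue (4 to 9 up, 0 to 1 down) and 15 to 28 between tissues (15 to 27 up, 0 to 2 down), with 3 and 15 without pancreas control 2.

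The pancreas median became 0.45 with library totals alone, -0.18 with no filter and 0.012 when scaled to summed member counts, and -0.32 to -0.23 without 1 sample. The adipose median became 0.037 with library totals alone and -0.023 when scaled to summed member counts, and 0.14 to 0.25 without 1 sample. The pancreas share difference was -0.0795 percentage points outside acinar genes, and 0.0181 to 0.0248 without 1 sample. The adipose share difference was 0.00355 to 0.0185 without 1 sample. Scaling to summed member counts sets their total level by construction, and for other moved values the cause was not tested.

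Related lists with library totals alone in the pancreas gave 0 called for other mitoribosome names, 14 for assembly factors, 4 for transcription and replication, 10 for regulators, 1 for mitochondrially encoded genes and 4 for complex I. In adipose tissue they gave 1 for assembly factors, 2 for synthetases and 1 for cytosolic ribosomal proteins. DESeq2 gave 1 for transcription and replication and 4 for mitochondrially encoded genes in the pancreas and 3 for the latter in adipose tissue.

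Single log2 values that changed sign with library totals alone were, in the pancreas, Mrpl11 0.22, Mrpl12 0.39, Mrpl16 0.50, Mrpl17 0.54, Mrpl30 0.098, Mrpl33 0.63, Mrpl41 0.31, Mrpl50 0.15, Mrpl52 0.58, Mrpl58 0.16 and Mrps35 0.32. In adipose tissue they were Mrpl23 -0.098, Mrps18c -0.044, Mrps21 -0.068 and Mrps24 -0.028. Between tissues they were Mrpl11 -0.11, Mrpl12 -0.32, Mrpl16 -0.0081, Mrpl17 -0.066, Mrpl19 -0.49, Mrpl30 -0.075, Mrpl33 -0.12, Mrpl52 -0.023, Mrpl58 -0.33, Mrps15 -0.33, Mrps18a -0.18, Mrps18b -0.48 and Mrps6 -0.40. Scaled to summed member counts they were, in the pancreas, Mrpl16 0.053, Mrpl17 0.098, Mrpl33 0.19 and Mrpl52 0.14, and in adipose tissue Mrpl23 -0.16, Mrpl28 -0.041, Mrpl30 -0.048, Mrps14 -0.023, Mrps18c -0.10, Mrps21 -0.13 and Mrps24 -0.090. Adipose Mrpl42, near 0, turned to 8.8e-05 with DESeq2, 0.00014 with its size factors and 0.0057 with library sizes before the filter (added after seeing the data), and pancreas Mrpl33 to 1.7e-05 with no filter. Without 1 sample, adipose Mrpl42 ranged from -0.056 to 0.090, Mrps18a from -0.19 to 0.046 and Mrps30 from -0.18 to 0.022. Pancreas Mrpl19 ranged from -0.075 to 0.26, Mrpl33 from -0.19 to 0.016 and Mrps6 from -0.13 to 0.87, and between tissues Mrps35 from -0.26 to 0.032 and Mrps6 from -0.20 to 0.82. Of the other 1367 single values, 1205 kept their direction and side of the thresholds, 136 lost a call and 26 gained one.

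Nothing states whether the replicate numbers pair the samples. Deviations of same-numbered control and OA-AP samples correlated at -0.16 to 0.06 across genes. Those of same-numbered pancreas and adipose samples correlated at -0.05 to 0.13. With so few libraries per group, these values cannot show whether same-numbered tissues came from the same mouse. The block gave 18 calls in the pancreas and 6 in adipose tissue. Depth limits the pancreas most, where Mrps36 had 3 counts in 1 library. Library sizes before the filter left the 18, 6 and 29 calls in place.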
